A study of Mus musculus with 22 samples.

Results

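The comparison described here is that of cardiac fibroblasts taken after 4 days of swimming with cardiac fibroblasts of sedentary mice. Its members are the 3 libraries labelled 4 day swim and the 3 labelled sedentary, 6 of the 22 libraries of the series, chosen by their labels, and every gene of the deposited table (23359) enters. All animals were male wild-type C57BL/6 mice between postnatal weeks 10 and 14, and exercise is the only difference that the labels give between these groups. Other fibroblast groups are compared only to show where the 4 day swim libraries differ. They are 10 day swim (n = 3), 3 days after TAC (n = 3) and 3 days after a sham operation (n = 2). TAC is read as transverse aortic constriction, which loads the ventricle with pressure. All 19 fibroblast libraries (7 groups) entered the gene filter and the shared estimate of spread behind the calls. Poly-A RNA was made into stranded libraries, and the values are FPKM, a measure that divides fragments by transcript length and sequencing depth. No counts were given, so the depth of each library is unknown. The labels do not say whether libraries came from separate animals or from pools, so a p-value here speaks of the spread among these libraries alone, which may be technical. In bulk RNA, fewer cells of a type and less RNA per cell cannot be told apart.

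Cardiac fibroblasts lay down and remodel the collagen network of the heart and secrete growth factors and chemokines that reach myocytes, vessels and leukocytes. Swimming is a form of endurance exercise that makes the heart grow without the scarring seen in pressure overload, and the first days of training are the stage at which the load is new. In response to injury or to danger signals fibroblasts switch on interferon-stimulated genes, NF-kB target genes and chemokines, and in response to mechanical load they can turn into contractile, matrix-producing myofibroblasts.

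The libraries differed in how expression ran with transcript length, and this difference coincided with the groups. The slope of log2(FPKM + 1) on log2 transcript length was -0.17, -0.29 and -0.21 per doubling in the 3 sedentary libraries and -0.66, -0.92 and -0.73 in the 3 swim libraries. The swim libraries were all steeper, with swim library 2 the steepest (difference of means -0.54, exact permutation test, two-sided, p = 0.10, the smallest that 3 against 3 allows). The plot of slopes shows that sham libraries lay with the sedentary ones and the 3 day TAC libraries with the 4 day swim ones. The 10 day swim libraries lay between, at -0.53, -0.65 and -0.57, each flatter than every 4 day swim library. Total FPKM was 85128 to 119382 in sedentary and 197221 to 205139 in swim libraries. Rn45s, the unprocessed ribosomal RNA that carries no poly-A tail, was listed at 171, 273 and 202 FPKM in sedentary and 361, 1435 and 950 in swim libraries (log2 fold change 1.90, adjusted p = 0.0534, and 2.46, adjusted p = 0.0225, without swim library 1). The part of RNA quality in the results was not tested. Counts below are as deposited unless stated, and the main ones are also given after a smooth trend on length and GC content had been removed from each library.

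**Figure D1:**
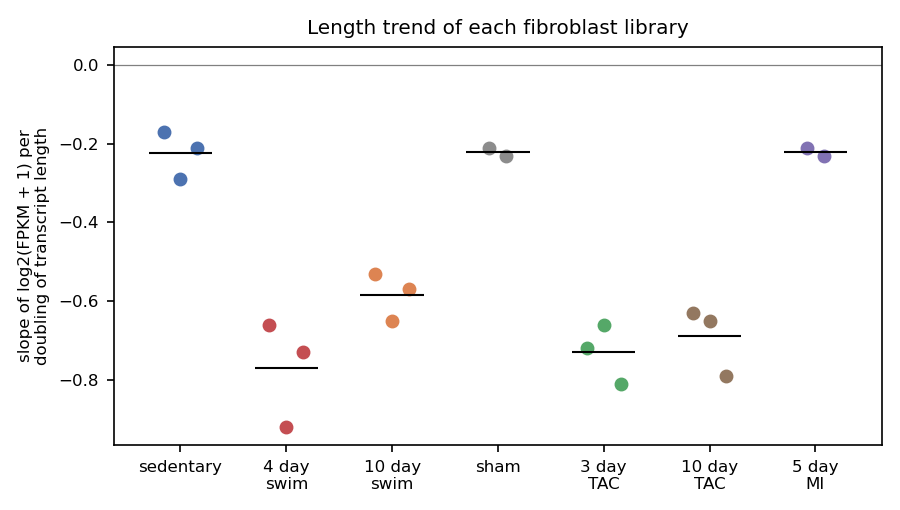
Slope of log2(FPKM + 1) on log2 transcript length (y axis) for each of the 19 fibroblast libraries by group (x axis); points are libraries and bars group means. The 3 sedentary libraries lie between -0.29 and -0.17 and the 3 libraries of 4 day swim between -0.92 and -0.66.

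Of 9425 genes that reached 1 FPKM in 2 or more libraries, 6078 (64.5%) were called at an adjusted p under 0.05 (limma on log2(FPKM + 1), Benjamini-Hochberg). Of these, 3601 were higher (38.2% of genes tested) and 2477 lower (26.3%) in swim libraries, and the median log2 fold change of all genes was 0.13. With the trend removed, 3524 of 9250 genes were higher (38.1%) and 1427 lower (15.4%), so the share of calls that were higher went from 59.2% to 71.2%. In both fits the same way, 2395 genes were higher (25.9%) and 967 lower (10.5%). In the authors' deposited table of the same 2 groups, 2754 of 13051 genes tested were higher and 2142 lower at a q-value under 0.05. Their test and their set of genes differed from those used here, so the counts are not matched. The plot of list medians gives the median in both fits for each gene list. Every list count below is to be read beside these shares of all genes, 38.2% higher and 26.3% lower as deposited.

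**Figure D2:**
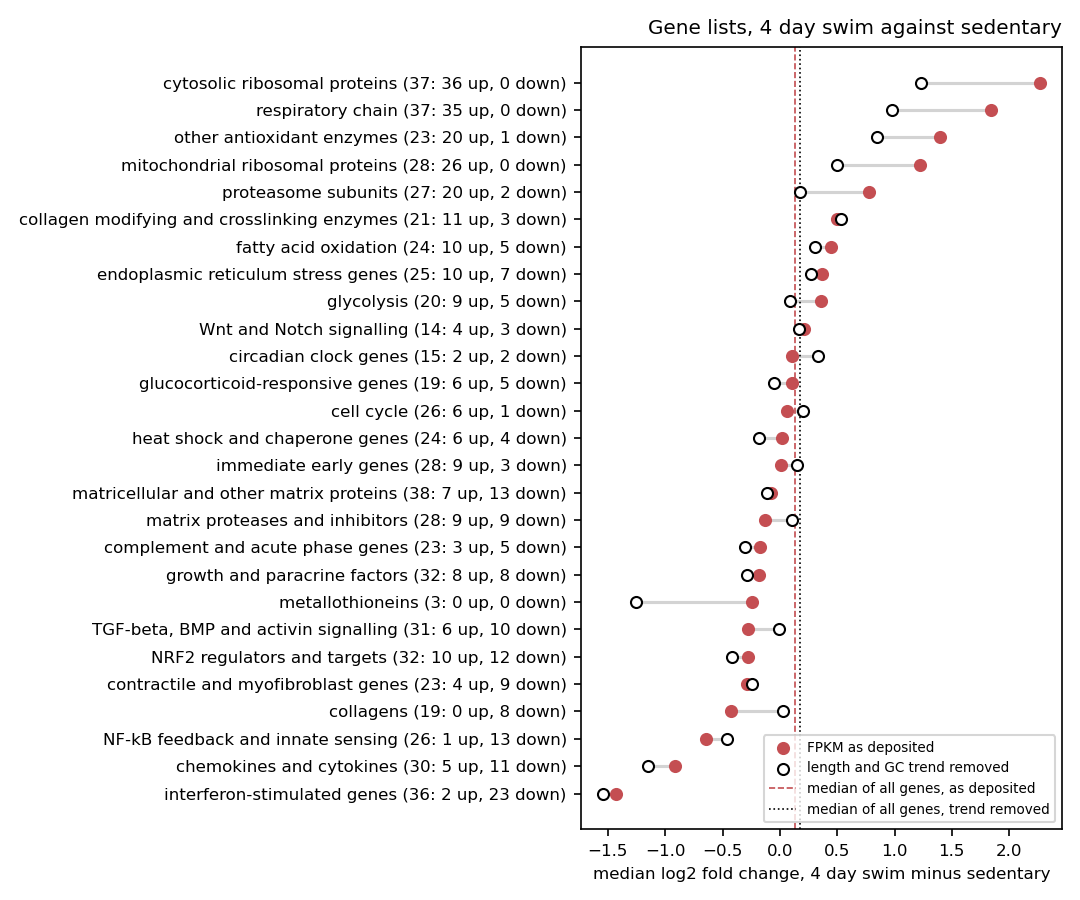
Median log2 fold change, 4 day swim minus sedentary (x axis), of the tested members of 27 gene lists (y axis, with the members tested and those called higher and lower); filled points are FPKM as deposited, open points have the length and GC trend removed, and vertical lines are the medians of all genes. Interferon-stimulated genes lie lowest in both fits (-1.43 and -1.54), and the medians of ribosomal proteins and respiratory chain subunits move nearer to those of all genes once the trend is removed.

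The largest fall was in Ccl5 (RANTES), a chemokine that attracts T cells and monocytes (mm10, chromosome 11, 83525779 to 83530518). It stood at 148, 154 and 39.5 FPKM in the sedentary libraries and at 1.36, 1.01 and 3.78 in the swim libraries. All sedentary values were above all swim values (log2 fold change -5.11, SE 0.526, adjusted p = 1.72e-06; -6.23 with the trend removed). Cxcl5, a neutrophil chemokine, fell from 64.2, 100 and 7.63 FPKM to 0.652, 0.492 and 1.88 (log2 fold change -4.32, adjusted p = 0.000348). Csf1, the growth factor of macrophages, fell from 296, 317 and 65.7 FPKM to 14.3, 3.99 and 49.9 (log2 fold change -3.55, adjusted p = 0.00445). In all of them sedentary library 3 was the lowest of its group and yet above every swim library. Csf3, the growth factor of granulocytes, fell by 2.47 on the log2 scale (adjusted p = 0.00146). Il6, the acute phase cytokine, stood at 242, 247 and 54.3 FPKM against 36.7, 9.82 and 77.7. Its groups overlapped, and its log2 fold change of -2.23 (adjusted p = 0.0297) was no longer called without swim library 2 (-1.46, adjusted p = 0.156), sedentary library 1 (-1.88, adjusted p = 0.104) or sedentary library 2 (-1.87, adjusted p = 0.0964). Ccl2, the monocyte chemokine, was not called (log2 fold change -1.10, adjusted p = 0.197), but was without sedentary library 3 (-1.81, adjusted p = 0.037). In the list of chemokines and cytokines 11 of 30 fell and 5 rose (median -0.91), and 17 were lower and 2 higher with the trend removed (7 without sedentary library 1, 9 without swim library 2 and 11 without sedentary library 2). As deposited, 17 were lower without sedentary library 3, and 2 to 3 were higher without swim library 2, swim library 3, sedentary library 1 or sedentary library 3. Among those that rose was Ccl6, a chemokine of macrophages listed at one locus with another gene, from 10.7, 17.6 and 13.7 FPKM to 48.6, 76.8 and 79.8 (log2 fold change 2.21, adjusted p = 0.000134). Against sham its value was 0.71 (adjusted p = 0.172).

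Interferon-stimulated genes, whose products block the replication of viruses, were mostly lower after 4 days of swimming. Of 36 tested, 23 fell and 2 rose, with a median log2 fold change of -1.43 beside 0.13 for all genes. Their mean log2 level was 4.19, 4.59 and 2.68 in the sedentary libraries and 2.39, 1.87 and 2.81 in the swim libraries. Sedentary library 3 thus stood apart from its group and below swim library 3, and its summed level of 499 FPKM was below the 617 to 944 of the swim libraries (1545 and 2202 in the other sedentary libraries). With the trend removed, 22 were lower and none higher (median -1.54), and 19 were lower in both fits. When each library was left out in turn, 17 to 29 were lower, fewest without sedentary library 2 and most without sedentary library 3. The sets of bases that follow are the 200 upstream of the start of 3 of these genes (RefSeq, GRCm38.p6), shown because they hold the core of the interferon-stimulated response element, read as GAAA, any 2 bases and GAAA, which the factors that interferon activates bind. Each is written 5′ to 3′ on the gene's strand, and capitals mark each match on either strand.
Rsad2, chr12:26456453-26456652, minus strand: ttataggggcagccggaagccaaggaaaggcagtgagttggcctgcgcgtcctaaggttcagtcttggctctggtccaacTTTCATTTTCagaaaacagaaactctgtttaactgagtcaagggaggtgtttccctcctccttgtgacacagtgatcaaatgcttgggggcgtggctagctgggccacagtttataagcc
Ifit1, chr19:34640689-34640888, plus strand: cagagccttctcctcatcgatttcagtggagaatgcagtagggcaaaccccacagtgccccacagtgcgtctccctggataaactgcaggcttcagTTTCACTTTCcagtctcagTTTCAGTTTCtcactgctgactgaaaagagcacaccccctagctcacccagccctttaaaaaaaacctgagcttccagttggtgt
Ifit3, chr19:34583329-34583528, plus strand: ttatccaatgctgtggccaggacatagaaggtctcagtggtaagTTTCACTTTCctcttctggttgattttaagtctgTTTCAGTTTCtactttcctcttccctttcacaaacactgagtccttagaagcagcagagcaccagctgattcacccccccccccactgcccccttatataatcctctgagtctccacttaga
Ifit1 and Ifit3 each hold 2 matches and Rsad2 holds 1. Upstream of Ifit2 and Cmpk2, also among the largest falls of the list, there was no match. A match was found upstream of 10 of the 29 tested list genes with a promoter in RefSeq (34.5%), against 188 of 6882 tested genes (2.73%) and 716 of 27025 genes in all (2.65%). It was present in 7 of 18 list genes that fell (38.9%) and 3 of 11 that did not (27.3%).

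Ifit1, an RNA-binding antiviral protein (chromosome 19, 34640889 to 34650009), stood at 124, 108 and 11.5 FPKM in sedentary and 2.18, 1.67 and 9.61 in swim libraries. Sedentary library 3 and swim library 3 were close, but the groups did not overlap (log2 fold change -3.63, SE 0.937, adjusted p = 0.00385; -3.25 with the trend removed). Rsad2 (viperin), which makes a chain-terminating nucleotide, stood at 165, 255 and 15.7 FPKM against 1.53, 0.486 and 17.3. Here swim library 3 was above sedentary library 3, so the groups overlapped (log2 fold change -4.45, adjusted p = 0.00537). Rsad2 was not called with only these 2 groups in the fit (adjusted p = 0.0545). Ifit3, a partner of Ifit1, also overlapped, at 79.4, 149 and 8.63 against 4.08, 1.84 and 11.6 FPKM (log2 fold change -3.11, adjusted p = 0.0124), and was no longer called without swim library 2 (-2.61, adjusted p = 0.0607) or sedentary library 2 (-2.30, adjusted p = 0.0571). Iigp1, an interferon-inducible GTPase outside the list that attacks vacuoles of intracellular parasites, fell from 26.6, 40.3 and 10.5 FPKM to 1.53, 0.326 and 1.47, with clearly separate groups (log2 fold change -3.55, adjusted p = 2.98e-05). Ifit2, of the list, and Ifi205, an interferon-inducible DNA sensor outside it, had log2 fold changes of -3.28 and -3.03 (adjusted p = 0.00528 and 0.00065). The 2 list members that rose had transcripts of 792 and 678 bases: Bst2 (tetherin), which holds budding virus at the cell surface, at 1.52 (adjusted p = 4e-06), and Ifitm3, which blocks virus entry, at 0.76 (adjusted p = 0.000857). Neither was called with the trend removed, at 0.42 (adjusted p = 0.0642) and -0.28 (adjusted p = 0.19). Also outside the list, Ifi27l2a and Ifi27l2b, small interferon-inducible mitochondrial proteins, rose by 3.03 and 3.08 and by 1.93 and 2.18 with the trend removed.

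**Figure D3:**
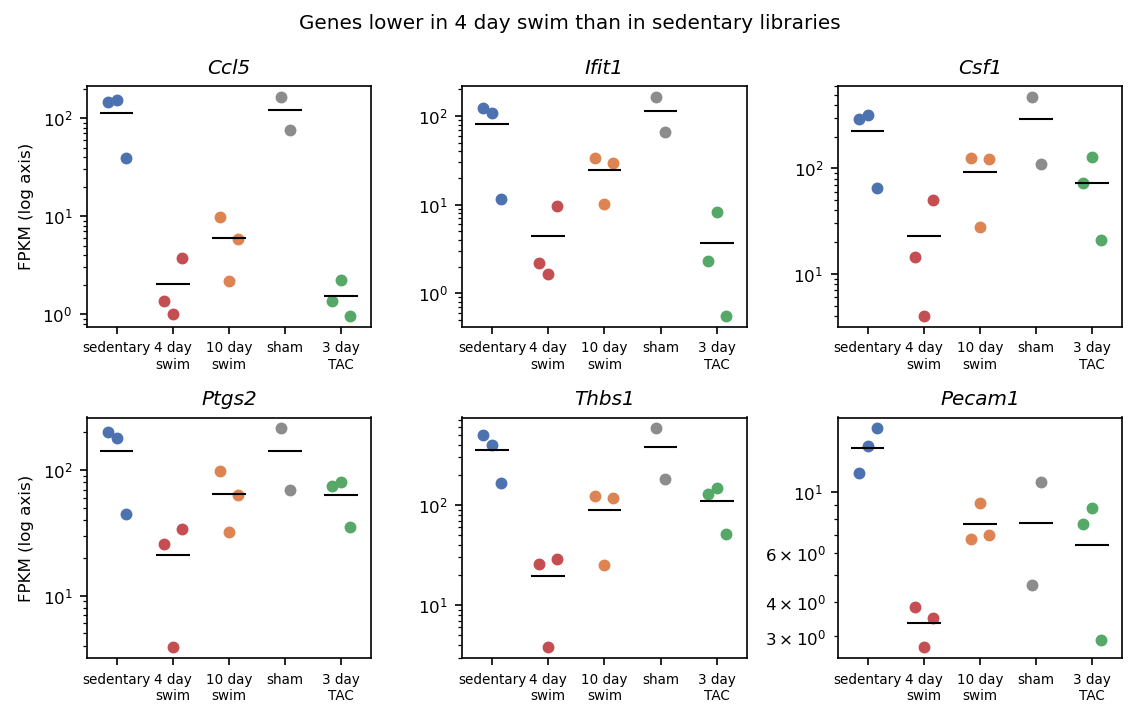
FPKM on a log axis (y) of 6 genes in each library of 5 fibroblast groups (x); points are libraries and bars group means. For Ccl5, Ifit1, Csf1, Ptgs2, Thbs1 and Pecam1 all 3 swim libraries lie below all 3 sedentary libraries, and sedentary library 3 is the lowest of its group in all but Pecam1.

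Of 26 genes of NF-kB feedback and innate sensing, 13 fell and 1 rose (median -0.64), and 8 were lower without swim library 2. Ptgs2, the inducible cyclooxygenase of prostaglandin synthesis, stood at 200, 180 and 45.1 FPKM in sedentary and 25.9, 3.87 and 33.8 in swim libraries. All swim values were lower (log2 fold change -2.84, SE 0.728, adjusted p = 0.0033). Icam1, a ligand of leukocyte integrins, fell from 177, 196 and 102 FPKM to 32.4, 16.3 and 61.6 (log2 fold change -2.22, adjusted p = 0.00197). Vcam1, the other integrin ligand of activated cells, fell by 2.29 (adjusted p = 0.00191). Nfkb1, the p50 subunit of NF-kB, fell by 2.13 (adjusted p = 0.002), and Tnip1, a feedback inhibitor of the pathway, by 1.60 (adjusted p = 0.000669). After trend removal 10 of the 26 were lower and 1 higher, and 6 were lower without swim library 2 or sedentary library 1. Ptx3, a soluble pattern recognition protein listed at one locus with another gene, stood at 307, 304 and 95.8 FPKM against 9.6, 1.45 and 44.5, without overlap (log2 fold change -4.30, adjusted p = 0.002).

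Most endothelial markers (15 of 23) were lower as well. Selp and Sele, the P- and E-selectins of activated endothelium, which were not on the marker list, fell from 42.5, 40.3 and 20.8 to 0.24, 0.0552 and 1.10 FPKM and from 36.2, 27.4 and 19.2 to 0.514, 0.0534 and 2.48 FPKM. Their log2 fold changes were -4.60 (adjusted p = 1.49e-05) and -3.97 (adjusted p = 0.000228), and Selp is listed at one locus with other genes. Pecam1, a junction protein of endothelial cells, fell from 11.7, 14.7 and 17.0 FPKM to 3.84, 2.74 and 3.51 (log2 fold change -1.82, adjusted p = 0.000367), and its groups were far apart. On the endothelial list 15 fell and 1 rose (median -0.90; 14 lower and none higher with the trend removed, and then 8 lower without swim library 1, 9 without swim library 2 and 9 without sedentary library 2). Their summed level, which a few abundant short transcripts set, was 200 to 323 FPKM in sedentary and 203 to 417 in swim libraries, while their mean log2 level was 2.62 to 3.05 and 2.02 to 2.11. None of them was at 0 in any of the 6 libraries. Against sham, Pecam1 had a value of -0.91 (adjusted p = 0.0614). Of the 23 endothelial markers 6 were lower and 2 higher there (median -0.14). That is to be read beside 27.8% of all genes lower and 32.7% higher against sham. The part of endothelial RNA in the falls of adhesion and chemokine genes was not tested.

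Ribosomal and respiratory chain genes, which have short transcripts, were mostly higher as deposited. Of 37 cytosolic ribosomal proteins 36 rose and none fell (median log2 fold change 2.27), of 37 respiratory chain subunits 35 rose and none fell (median 1.84), and of 28 mitochondrial ribosomal proteins 26 rose and none fell (median 1.22). The median transcript lengths of these lists were 679, 763 and 1050 bases, against 2588 for all genes. With the trend removed the medians were 1.23, 0.98 and 0.50 beside 0.18 for all genes, and 34, 35 and 17 members were higher, with 1 mitochondrial ribosomal protein lower. Ndufa6, a subunit of complex I of the respiratory chain, rose from 8.26, 13.3 and 9.91 FPKM to 58.2, 121 and 63.0, the steepest library 2 being the highest (log2 fold change 2.78, adjusted p = 9.51e-07; 1.66 with the trend removed). Uqcrh of complex III rose by 2.55 and by 1.56 with the trend removed. Rps14 of the small ribosomal subunit rose by 3.18 and by 2.03. Of 27 proteasome subunits 20 rose and 2 fell, and with the trend removed their median was 0.18, that of all genes. Psmb5, a catalytic subunit, rose by 1.92 (adjusted p = 3.07e-05), whereas Psmd1 and Psmd11, regulatory subunits with transcripts of 3112 and 2848 bases, fell by 0.95 and 1.13. Against 3 day TAC, whose libraries have like slopes, no member of these 4 lists was called in either direction.

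Most antioxidant enzymes rose, while targets of NRF2, the transcription factor of the oxidative stress response, were split. Gpx1, a glutathione peroxidase that removes hydrogen peroxide, stood at 24.7, 25.3 and 31.4 FPKM in sedentary and 187, 347 and 181 in swim libraries, wide apart (log2 fold change 3.03, adjusted p = 1.08e-06; 2.04 with the trend removed). Prdx2, a peroxiredoxin, rose by 2.12 and by 1.65 with the trend removed. Of 23 antioxidant enzymes outside the NRF2 list 20 rose and 1 fell (17 higher and none lower with the trend removed). The one that fell was Sod2, the mitochondrial superoxide dismutase, an NF-kB target, at -1.37 (adjusted p = 0.00198). Its value with the trend removed was -0.46 (adjusted p = 0.218). Of 32 NRF2 regulators and targets, 10 rose and 12 fell. After trend removal 8 were higher and 14 lower, with 5 higher and 6 lower without swim library 2 and 8 lower without sedentary library 2. Gstt1, a glutathione transferase, went from 6.96, 5.52 and 9.72 FPKM to 28.7, 49.5 and 24.4 (log2 fold change 2.03, adjusted p = 5.15e-06). Gclm, the regulatory subunit of the enzyme that limits glutathione synthesis, went the other way, from 11.3, 30.4 and 6.67 FPKM to 2.95, 1.92 and 4.5, without overlap (log2 fold change -1.85, adjusted p = 0.00188; -2.81 with the trend removed). Txnrd1, thioredoxin reductase, fell by 2.13 (adjusted p = 0.00462). Hmox1, which degrades heme, stood at 235, 642 and 227 FPKM against 79.1, 31.0 and 251. One swim library reached the sedentary range, and its log2 fold change of -1.91 (adjusted p = 0.0157) was no longer called without swim library 2 (-1.20, adjusted p = 0.0994) or sedentary library 2 (-1.42, adjusted p = 0.0734). Nqo1, a quinone reductase, stood at 0.675, 2.68 and 0.46 FPKM against 0.813, 1.15 and 1.05 (log2 fold change -0.06, adjusted p = 0.841; without sedentary library 2 0.35, adjusted p = 0.0205).

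The metallothioneins, which bind zinc and copper and respond to stress and glucocorticoids, were not called as deposited (0 of 3 tested, median -0.24; 1 higher without swim library 2). After trend removal 2 of 3 were lower (median -1.25). That count was 3 without swim library 1, swim library 3 or sedentary library 3, and 0 without swim library 2, sedentary library 1 or sedentary library 2. It was 3 against sham. Under quantile normalization 2 were lower. Mt1 stood at 154, 171 and 124 FPKM in sedentary and 227, 133 and 254 in swim libraries. The groups overlapped through swim library 2 (log2 fold change 0.41, adjusted p = 0.145), without which the value was 0.69 (adjusted p = 0.0147). Under quantile normalization it was -0.83 (adjusted p = 0.00621). Mt2 stood at 296, 341 and 174 FPKM against 277, 88.9 and 357, with overlap (log2 fold change -0.33, adjusted p = 0.505). After trend removal its value was -1.51 (adjusted p = 0.0269).

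The main chains of type I and type III collagen were not called as deposited, whereas both main chains of type IV collagen fell. Col1a1, the main chain of type I collagen (chromosome 11, 94936270 to 94951856), stood at 29.6, 16.3 and 27.8 FPKM in sedentary and 47.7, 23.6 and 27.0 in swim libraries. These ranges overlap (log2 fold change 0.38, SE 0.33, adjusted p = 0.326). It was called higher with the trend removed (0.81, adjusted p = 0.0251). Col3a1, the chain of type III collagen, overlapped too, at 28.8, 13.1 and 33.9 against 24.5, 11.2 and 15.1 FPKM (log2 fold change -0.52, adjusted p = 0.212), and without sedentary library 2 it was called lower (-0.92, adjusted p = 0.0308). Of 19 collagens 8 fell and none rose (median -0.43; 3 lower without swim library 2 and 4 without sedentary library 1), and with the trend removed, which bears on these long transcripts (median 5679 bases), 3 were higher and 2 lower (median 0.03; 1 higher without swim library 1 or sedentary library 2). Those lower in both fits were Col4a1 and Col4a2, the main chains of basement membranes. Col4a1 went from 32.7, 25.9 and 25.6 FPKM to 11.6, 5.93 and 7.11 (log2 fold change -1.70, adjusted p = 6.26e-06; -1.19 with the trend removed). The laminin chains Lama2, Lama4 and Lamb1, which stand beside type IV collagen in those membranes, had log2 fold changes of -2.34, -1.68 and -1.66 and of -1.34, -0.99 and -1.09 with the trend removed.

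Of 21 collagen-modifying and crosslinking enzymes 11 rose and 3 fell (13 higher and 2 lower with the trend removed). Serpinh1, the collagen chaperone HSP47, rose from 59.2, 83.2 and 49.0 FPKM to 185, 185 and 171 (log2 fold change 1.52, adjusted p = 5.13e-06), and the swim libraries were nearly alike. Ppib and Fkbp10, prolyl isomerases of the collagen pathway, rose by 1.85 and 1.01, and P4hb, a subunit of prolyl hydroxylase, by 0.88. P4hb was not called under quantile normalization (0.10, adjusted p = 0.554). Lox and Loxl2, the enzymes that crosslink collagen outside the cell, fell by 1.49 and 1.45 (adjusted p = 0.000152 and 0.0014).

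Thrombospondin 1, the product of Thbs1 and an activator of latent TGF-beta (chromosome 2, 118111922 to 118127133), fell most among the matricellular proteins. It stood at 495, 397 and 164 FPKM in sedentary and 25.8, 3.79 and 28.6 in swim libraries, without overlap (log2 fold change -4.36, SE 0.762, adjusted p = 0.000176; -3.68 with the trend removed). Fn1, fibronectin, fell from 14.0, 8.52 and 11.3 FPKM to 4.16, 1.61 and 3.18 (log2 fold change -1.65), with no overlap. Postn, periostin of activated fibroblasts, fell from 9.6, 4.44 and 9.68 FPKM to 4.19, 1.27 and 2.08 (log2 fold change -1.36, adjusted p = 0.00322). It was no longer called with the trend removed (-0.85, adjusted p = 0.0551). Wisp2, a CCN family protein of the Wnt pathway, did the opposite, from 4.84, 3.96 and 6.43 FPKM to 27.1, 38.0 and 33.2 with no overlap (log2 fold change 2.48, adjusted p = 1.28e-06; 1.92 with the trend removed). Of 38 matricellular and other matrix proteins 7 rose (4 without sedentary library 3) and 13 fell, and 4 were higher and 8 lower in both fits. Among proteases and inhibitors 9 of 28 rose and 9 fell: Cst3, the inhibitor cystatin C, rose by 2.30 and the secreted protease Htra3 by 1.66, and Adamts4 and Adamts1, aggrecanases, fell by 1.82 and 1.49 and Mmp14, a membrane-bound collagenase, by 1.38. Htra3 was not called under quantile normalization (0.79, adjusted p = 0.0681). Timp1, an inhibitor of metalloproteinases listed at one locus with other genes, stood at 16.7, 18.1 and 6.2 FPKM against 10.3, 8.77 and 8.82 (log2 fold change -0.39, adjusted p = 0.463; with the trend removed -1.37, adjusted p = 0.0129).

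Among genes of the TGF-beta and BMP pathways and of the contractile apparatus, rises were fewer than the 38.2% of all genes and falls stood beside a share of 26.3%. Tgfb2, a TGF-beta ligand, fell from 10.2, 8.78 and 5.40 FPKM to 1.02, 0.335 and 1.43 (log2 fold change -2.25, adjusted p = 9.14e-05; -1.52 with the trend removed). Inhba, the subunit of activin A, fell by 2.55 (adjusted p = 0.00163), and Bmpr2, a BMP receptor with a very long transcript, by 1.85 (0.56 with the trend removed). Id3, a target of BMP signals, rose from 20.4, 28.6 and 29.5 FPKM to 112, 177 and 62.7, all above the sedentary range (log2 fold change 2.02, adjusted p = 3.91e-05). Of 31 genes of TGF-beta, BMP and activin signalling 6 rose and 10 fell, and after trend removal 5 were higher and 6 lower (3 lower without swim library 2) at a median of -0.01. Acta2, the smooth muscle actin of myofibroblasts, stood at 10.3, 16.5 and 5.04 FPKM against 8.32, 4.97 and 7.22, with overlap (log2 fold change -0.46, adjusted p = 0.31). S100a4, a calcium-binding protein of motile fibroblasts, rose by 2.82, whereas Vcl, vinculin of focal adhesions, and Actn1, a crosslinker of actin, fell by 1.48 and 1.27. Of 23 contractile and myofibroblast genes 4 rose and 9 fell, with 1 higher and 6 lower in both fits.

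Secreted growth factors also split. Igfbp4, a binding protein that holds IGF from its receptor (chromosome 11, 99041260 to 99052643), stood at 66.9, 71.6 and 70.6 FPKM in sedentary and 270, 354 and 275 in swim libraries. The sedentary values were nearly equal and every swim value was well above them (log2 fold change 2.08, SE 0.218, adjusted p = 1.28e-06; 2.34 with the trend removed). Igfbp6, which prefers IGF2, rose by 2.18 (adjusted p = 2.93e-06). Igf1 itself stood at 3.25, 4.09 and 3.45 FPKM against 4.29, 5.10 and 6.17, not overlapping but not called (log2 fold change 0.42, adjusted p = 0.0593). It was called without swim library 1 (0.53, adjusted p = 0.0368) or sedentary library 2 (0.50, adjusted p = 0.0484), and with the trend removed its value was 1.45 (adjusted p = 2.97e-05). Kitl, stem cell factor, fell by 1.83 (adjusted p = 5.35e-06). Vegfa, the endothelial growth factor, stood at 38.5, 31.1 and 17.2 FPKM against 15.0, 2.91 and 24.4, with overlap (log2 fold change -1.28, adjusted p = 0.0525). It was called lower without swim library 1 (-1.51, adjusted p = 0.0469), swim library 3 (-1.85, adjusted p = 0.00781) or sedentary library 3 (-1.61, adjusted p = 0.0278). Hgf and Ptn, hepatocyte growth factor and pleiotrophin, were below 1 FPKM in all 6 libraries, with log2 fold changes of -0.10 and 0.03 (adjusted p = 0.484 and 0.907). Hgf had a value of 0.35 with the trend removed (adjusted p = 0.0385). Of 32 growth and paracrine factors 8 rose and 8 fell, and after trend removal 9 were higher and 11 lower (5 without swim library 2 and 6 without sedentary library 2).

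The counts in the lists of stress, clock and secretory pathway genes are to be read beside the 38.2% of all genes that were higher and the 26.3% that were lower. Ier2 and Btg2, immediate early genes that respond within minutes to growth signals and to tissue handling, went from 24.7, 24.0 and 28.8 to 86.1, 80.8 and 79.2 FPKM and from 6.2, 7.32 and 8.57 to 20.6, 17.1 and 22.1. Both were clearly separate (log2 fold changes 1.63 and 1.33, adjusted p = 2.23e-06 and 0.000251). Dusp1, a phosphatase that ends MAP kinase signals, rose by 1.31 (adjusted p = 0.00112; 0.60 under quantile normalization, adjusted p = 0.129). Egr1 stood at 84.4, 67.4 and 198 FPKM against 145, 92.8 and 64.8 (log2 fold change -0.12, adjusted p = 0.776). Fos was called higher (1.10, adjusted p = 0.0451) but overlapped, at 20.8, 12.8 and 46.9 against 54.0, 70.4 and 35.3 FPKM, and was not called without swim library 1 (1.07, adjusted p = 0.0945), swim library 2 (0.88, adjusted p = 0.165), sedentary library 1 (1.02, adjusted p = 0.112) or sedentary library 2 (0.69, adjusted p = 0.213). Of 28 immediate early genes 9 rose and 3 fell (5 lower without swim library 1, none without swim library 2 and 1 without sedentary library 1).

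Dbp, an output gene of the circadian clock, stood at 4.0, 1.04 and 10.1 FPKM in sedentary and 25.9, 48.6 and 13.8 in swim libraries, all higher, with a wide spread in both groups (log2 fold change 2.48, adjusted p = 0.0012). Tef, its relative, rose by 1.02, and the core clock gene Per1 had a value of 0.04 (adjusted p = 0.878). Of 15 clock genes 2 rose and 2 fell (4 lower without swim library 1, and 1 without swim library 2 or sedentary library 1). After trend removal 6 were higher and 1 lower, and the hour of sampling is not in the labels. Among glucocorticoid-responsive genes 6 of 19 rose and 5 fell (3 without swim library 2). Ddit4, an inhibitor of mTOR, rose by 1.77 and Tsc22d3 (GILZ) by 1.62, whereas Fkbp5, a cochaperone of the receptor, had a value of 0.32 (adjusted p = 0.169; without swim library 3 0.51, adjusted p = 0.0347). Tsc22d3 was not called against sham (0.80, adjusted p = 0.0531). Sdf2l1, a chaperone of the endoplasmic reticulum, went from 1.48, 3.07 and 1.76 FPKM to 20.7, 24.6 and 12.8 (log2 fold change 2.70, adjusted p = 1.07e-06), and Xbp1, a factor of the unfolded protein response, rose by 1.29. Asns, asparagine synthetase of the amino acid response, fell by 2.31 (adjusted p = 0.00607). Of 25 endoplasmic reticulum stress genes 10 rose and 7 fell, and of 24 heat shock genes 6 rose and 4 fell (7 without swim library 1, and 2 without swim library 2, sedentary library 1 or sedentary library 2), with Hspe1 of the mitochondrial chaperonin at 2.57 and Hspa9, the mitochondrial HSP70, at -1.91. Of 24 genes of fatty acid oxidation 10 rose and 5 fell (3 without sedentary library 2), with Etfb, which passes electrons to the respiratory chain, at 2.02 and Pdk4, a brake on glucose oxidation, at -1.09. Of 20 glycolysis genes 9 rose and 5 fell, with the enzyme Tpi1 at 1.31 and hexokinase 1, Hk1, at -1.48.

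Markers of resting fibroblasts were present in all 6 libraries, none at 0, and 13 of 29 rose while 3 fell (1 without swim library 2 or sedentary library 3). The shares of all genes were 38.2% higher and 26.3% lower. Their median log2 fold change was 0.60. With the trend removed 13 were higher and none lower (8 without swim library 1), beside 38.1% and 15.4% of all genes. Their summed level was 2786 to 3404 FPKM in sedentary and 4293 to 5343 in swim libraries. Total FPKM was also higher in swim libraries (197221 to 205139, against 85128 to 119382). Summed levels of any list are thus not shares of a library. Inmt, a methyltransferase typical of fibroblasts of the heart, stood at 9.56, 11.4 and 18.9 FPKM against 59.8, 135 and 119, far apart (log2 fold change 2.86, SE 0.408, adjusted p = 1.79e-05; 1.95 with the trend removed). Dcn, the proteoglycan decorin, stood at 850, 952 and 721 FPKM against 984, 731 and 1091, with overlap (log2 fold change 0.14, adjusted p = 0.676; under quantile normalization -1.04, adjusted p = 0.012). Gsn, gelsolin, had a value of 0.63 (adjusted p = 0.271). Tcf21, the transcription factor of resting cardiac fibroblasts, stood at 31.8, 43.2 and 16.9 FPKM against 44.6, 47.5 and 67.3, just apart (log2 fold change 0.85, adjusted p = 0.0514), and was called without sedentary library 2 (1.13, adjusted p = 0.019). Pdgfra, the PDGF receptor of fibroblasts, with a long transcript, overlapped at 10.9, 8.44 and 11.2 against 9.09, 4.35 and 5.57 FPKM. Its log2 fold change of -0.65 (adjusted p = 0.0411) was not called without swim library 2 (-0.45, adjusted p = 0.188), swim library 3 (-0.59, adjusted p = 0.0976), sedentary library 1 (-0.60, adjusted p = 0.105) or sedentary library 3 (-0.58, adjusted p = 0.102), and with the trend removed it was 0.20 (adjusted p = 0.472).

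**Figure D4:**
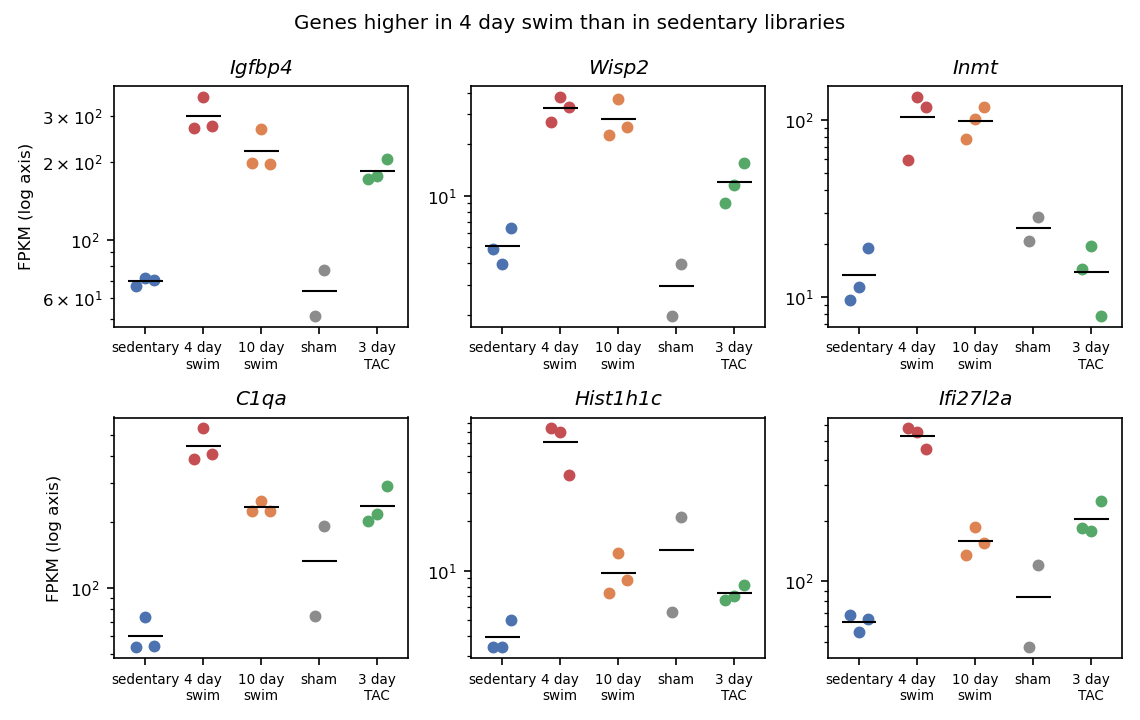
FPKM on a log axis (y) of 6 genes in each library of 5 fibroblast groups (x); points are libraries and bars group means. All 3 swim libraries lie above all 3 sedentary libraries for Igfbp4, Wisp2, Inmt, C1qa, Hist1h1c and Ifi27l2a, and for Hist1h1c and Ifi27l2a they also lie above every library of the other groups shown.

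Both groups also held RNA of other cells. C1qa, a chain of complement C1q made by macrophages, rose from 53.5, 73.5 and 54.0 FPKM to 387, 534 and 408, with no overlap (log2 fold change 2.86, adjusted p = 9.51e-07; 1.81 with the trend removed). Of 30 macrophage and monocyte markers 16 rose and 1 fell, and their summed level was 1494 to 2382 FPKM in sedentary and 3304 to 4200 in swim libraries, with none at 0. After trend removal 16 were higher (10 without swim library 3 or sedentary library 3) and 3 lower (1 without sedentary library 1). Ptprc, the leukocyte antigen CD45, fell nonetheless, from 8.59, 5.97 and 3.58 FPKM to 1.22, 1.49 and 1.34 (log2 fold change -1.52, adjusted p = 5.37e-05; -0.72 with the trend removed). C3, the central complement protein, fell by 2.16 (adjusted p = 0.000308). Against sham, 11 of the 30 macrophage and monocyte markers were higher and 5 lower (median 0.12), beside 32.7% and 27.8% of all genes. Their summed level was 2114 and 4031 FPKM in the sham libraries, the higher of these inside the swim range. The part of macrophage RNA in the rises was not tested. Of 21 cardiomyocyte markers none rose and 4 fell (median 0.29). Without sedentary library 2, 6 were higher (median 0.63), and without sedentary library 3 the median was -0.36. After trend removal 1 was higher and 3 lower (median -0.59), with 7 lower without sedentary library 3 and 1 lower without swim library 2, sedentary library 1 or sedentary library 2. Their summed level was 110 to 538 FPKM in sedentary and 230 to 379 in swim libraries. Myh6, the myosin of adult myocytes, fell by 1.99 (adjusted p = 0.00477), and Tnnt2, cardiac troponin T, had a value of 0.18 (adjusted p = 0.78). Among mural cell markers (pericytes and smooth muscle) 6 of 14 fell and 2 rose, at summed levels of 58.6 to 80.4 FPKM in sedentary and 41.4 to 59.5 in swim libraries. Complement and acute phase genes (3 of 23 rose and 5 fell, 3 without swim library 2 and 2 without sedentary library 1) and Wnt and Notch genes (4 of 14 rose, 2 without swim library 1, and 3 fell) moved both ways. None of 5 neutrophil markers tested was called. Of the 12 in the table, 0 or 1 was at 0 in each sedentary library, and 5, 0 and 1 in the swim libraries, at summed levels of 9.14 to 28.5 and 15.7 to 42.4 FPKM.

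Red cell genes rose with a wide spread. Hba-a1, an alpha globin whose near-identical copy can share reads with it, stood at 29.4, 934 and 4201 FPKM in sedentary and 21018, 6138 and 10575 in swim libraries. The groups did not overlap, but the sedentary libraries differed among themselves more than the highest of them did from the lowest swim library (log2 fold change 4.49, SE 1.53, adjusted p = 0.0197), and without sedentary library 1 (2.48, adjusted p = 0.0958) or swim library 1 (4.03, adjusted p = 0.0567) it was not called. It was not called either after trend removal (3.31, adjusted p = 0.0596), under quantile normalization (2.86, adjusted p = 0.0732), with only these 2 groups in the fit (4.49, adjusted p = 0.125) or against sham (3.98, adjusted p = 0.0586). As deposited all 7 erythroid markers tested rose, and after trend removal 2 of the 4 with a length were higher (none when any library but swim library 2 or sedentary library 3 was left out). Their summed level was 56.1 to 7970 FPKM in sedentary and 11581 to 37195 in swim libraries. Without sedentary library 1, 1 of the 7 was called, and without swim library 1, 3, and without swim library 3, 4. The part of red cell RNA in other results was not tested.

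**Figure D5:**
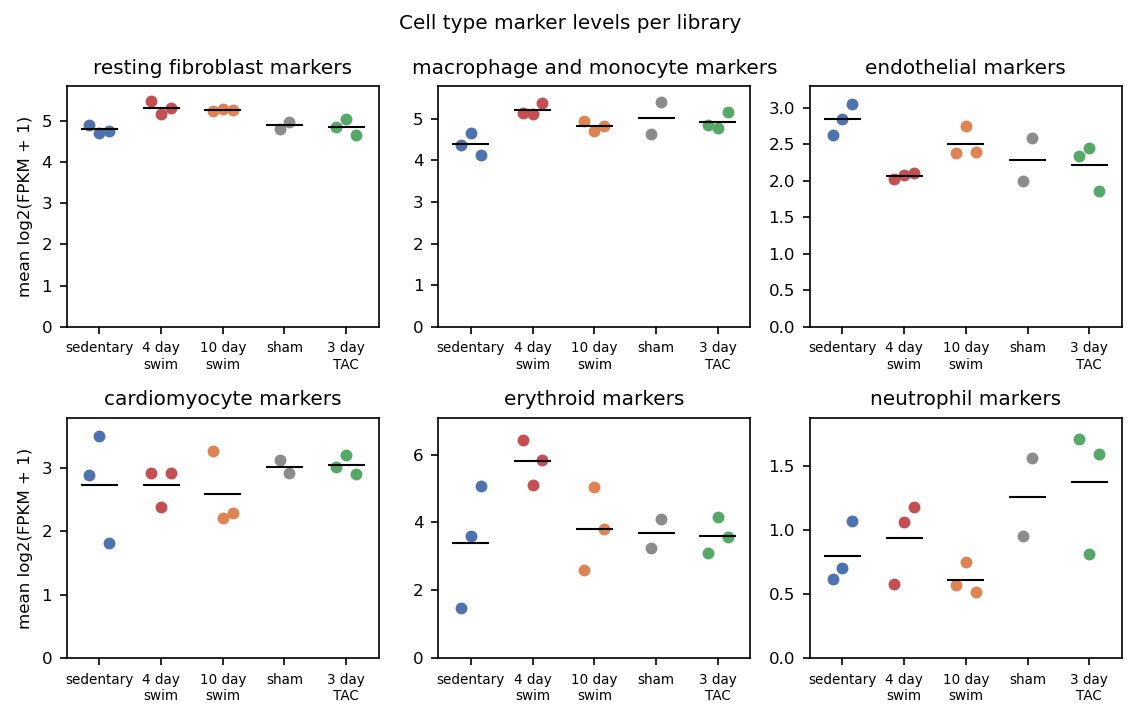
Mean log2(FPKM + 1) (y axis) of 6 cell type marker lists in each library of 5 fibroblast groups (x axis); points are libraries and bars group means. Endothelial markers lie at 2.62 to 3.05 in sedentary and 2.02 to 2.11 in 4 day swim libraries, macrophage markers at 4.13 to 4.67 and 5.12 to 5.39, and erythroid markers spread most, from 1.48 to 5.08 in sedentary libraries.

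Most histone genes rose against sedentary, and histone genes were 24 of the 30 calls between 4 and 10 days of swimming. Linker histones of the H1 family close the nucleosome, and the messages of replication-dependent histones, which cells make as they copy their DNA, end without a poly-A tail. The family was picked out after its values were seen, and its members share near-identical stretches, so single core histone genes are uncertain and not independent. Hist1h1c, the linker histone H1.2 (chromosome 13, 23738807 to 23740367), stood at 3.41, 3.43 and 5.03 FPKM in sedentary and 73.9, 70.1 and 38.2 in swim libraries. It was at 7.33, 12.9 and 8.83 FPKM in 10 day swim libraries, at 6.60, 7.06 and 8.18 after 3 day TAC and at 5.58 and 21.3 in sham libraries. The 4 day swim libraries were above all others (log2 fold change against sedentary 3.60, SE 0.357, adjusted p = 1.05e-06; 2.98 with the trend removed). Hist1h1b, the linker histone H1.5, stood at 0.352, 0.668 and 0.847 FPKM against 12.9, 10.4 and 5.55, with no overlap (log2 fold change 2.65, adjusted p = 1.4e-06). Of 63 tested genes whose symbols start with Hist, 62 rose and none fell against sedentary (median 1.85), also without any one of the 6 libraries, and with the trend removed 27 of 43 were higher and none lower (median 0.68). Against sham with the trend removed 15 of 43 were higher and none lower (median 0.22). Of all 9250 genes, 2789 were higher and 1707 lower there (median 0.08). Their summed level was 1011 to 1710 FPKM in sedentary and 4222 to 6283 in swim libraries, beside 2416 to 2796 after 10 days of swimming. Of 26 cell cycle genes 6 rose and 1 fell, at a median of 0.06 and summed levels of 78.7 to 170 FPKM in sedentary and 100 to 147 in swim libraries. After trend removal 9 were higher (5 without swim library 2) and 5 lower (2 without swim library 2 or sedentary library 1, and 3 without swim library 3 or sedentary library 3), at a median of 0.20.

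In the direct comparison with 10 day swim libraries 29 genes were higher (0.308% of genes tested) and 1 lower (0.0106%) at 4 days, while 2251 had an unadjusted p under 0.05. Both swim groups share the sedentary controls, so their values against sedentary are not independent. The length slopes of the 10 day libraries were flatter than those of the 4 day libraries. Of the 29, 24 were histone genes, and the others, named after their values were seen, were Ifi27l2a, Ifi27l2b, Sdf2l1, Hs3st1, which sulfates heparan chains, and Flywch2. The one lower gene, also named after its value was seen, was G530011O06Rik, at -1.73 (adjusted p = 0.0341). Hist1h1c was higher by 2.51 (adjusted p = 0.00375) and Hist1h1b by 2.02 (adjusted p = 0.00375), and both were called without each of the 6 libraries in turn (highest adjusted p = 0.0463 for each). Ifi27l2a stood at 68.2, 56.2 and 65.3 FPKM in sedentary, 574, 549 and 453 after 4 days and 136, 186 and 156 after 10 days, with no overlap between any of these groups. It was higher by 1.72 (adjusted p = 0.0118), and was called in 2 of 6 fits without 1 library (adjusted p = 0.118 without 10 day swim library 1). The number of calls was fragile: it ranged from 5 (without 10 day swim library 1) to 121 (without 4 day swim library 3), and was 8 without 4 day swim library 1, 6 without 4 day swim library 2 and 6 without 10 day swim library 3. With the trend removed 5 were called, 4 of them histone genes, and with only these 2 groups in the fit 1 was called, which was lower and was no histone gene. The number of histone genes called ran from 5 (without 4 day swim library 2 or 10 day swim library 1) to 40 (without 4 day swim library 3), and was 7 without 4 day swim library 1, 6 without 10 day swim library 3 and 16 without 10 day swim library 2. The erythroid list had a larger median difference from 10 day swim (3.12) than the histone genes (0.99), with none of its 7 members called.

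Against 3 day TAC, 490 genes were higher (5.2%) and 345 lower (3.66%) after 4 days of swimming. The 835 calls became 374 without TAC library 1 and 544 without swim library 2. Several matrix genes were lower than in both sedentary and TAC libraries. Lox stood at 17.3, 14.3 and 13.9 FPKM after TAC, against 1.97, 1.05 and 2.73 after swimming (log2 fold change -2.51, adjusted p = 9.71e-05). The log2 fold change was -2.90 (adjusted p = 0.000103) for Tnc, tenascin C of wounds, -2.31 (adjusted p = 0.000712) for Postn and -1.68 (adjusted p = 0.00139) for Fn1. All were called without each of the 6 libraries in turn. Timp1 and Col1a1, uncalled against sedentary, were lower than after TAC by 4.50 (adjusted p = 8.26e-05) and 1.81 (adjusted p = 0.0027). Col1a1 stood at 122, 132 and 86.8 FPKM after TAC, above every swim library. Thbs1 was lower by 2.69 (adjusted p = 0.0402), called in 3 of 6 fits without 1 library (adjusted p = 0.173 without swim library 2). Of 26 cell cycle genes 12 were lower after swimming than after TAC and none higher. Higher were Inmt, at 14.4, 19.5 and 7.82 FPKM after TAC (log2 fold change 2.83, adjusted p = 0.000446), Wisp2 (1.39, adjusted p = 0.00327), Hist1h1c (2.84, adjusted p = 0.000145) and the immediate early genes Ier2 (1.03) and Dusp1 (1.53). Of 29 resting fibroblast markers 10 were higher and 2 lower. Of 36 interferon-stimulated genes 3 were higher and none lower (median 0.19), and Ccl5 stood at 1.38, 2.22 and 0.962 FPKM after TAC, within the range of the swim libraries or just under it (log2 fold change 0.20, adjusted p = 0.897).

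Against the sham group, which shares no library with the sedentary one, 3085 genes were higher (32.7%) and 2621 lower (27.8%). Interferon-stimulated genes were lower there too: 21 of 36 were lower and 1 higher (median -1.52), with Ccl5 at 165 and 75.2 FPKM in sham libraries (log2 fold change -5.31, adjusted p = 5.15e-06) and Ifit1 at 164 and 66.5 (-4.56, adjusted p = 0.00195). Igfbp4 stood at 51.3 and 77.0 FPKM in sham libraries, under every swim library (log2 fold change 2.22, adjusted p = 3.31e-06), and Inmt at 20.7 and 28.2 (1.99, adjusted p = 0.00135). The sham libraries share the flat length slopes of the sedentary ones, so against either control the length trend and the exercise cannot be told apart.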

How the data were processed

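Poly-A RNA of cardiac fibroblasts was sequenced from stranded libraries, per the labels. The authors' deposited table gives FPKM values per gene and library, made with Cufflinks 2.0.2 on mm10 per the submitters' processing notes. The aligner is not stated, and neither is the annotation, in the sources used here. Tables of comparisons that the authors deposited give q-values and p-values, and their log2 fold changes were used only for the direction of a call. Another 44 columns, the confidence bounds of each library's FPKM, were left unused, and 27 symbols turned into dates were restored from their loci.

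Genes that reached 1 FPKM in 2 or more of 19 fibroblast libraries (7 groups, 9425 genes) entered 1 linear model of log2(FPKM + 1) in limma 3.58.1 with its trend and robust options (R 4.3.3), and 4 contrasts were taken. A call is an adjusted p (Benjamini-Hochberg) under 0.05. The added 1 pulls folds of low genes toward 0. For the trend removal, splines (4 degrees of freedom each) on log2 transcript length and GC content were fitted in each library over 9250 genes. Lengths came from the GENCODE M21 transcript that best matched the listed locus, which need not be the authors' transcript. The fit was tested on simulated data with independent noise for each gene. Those data held no difference in length trend between libraries, so the test cannot speak to its effect on the calls. Promoters came from RefSeq (GRCm38.p6).

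The lists, comparisons and naming rules were chosen with earlier results of these data known. Named genes were the 12 largest rises and falls called without overlap at FPKM of at least 5, as deposited and after trend removal, up to 5 called members of each of 27 lists in each direction at FPKM of at least 2, 6 of each that also differed from 3 day TAC or 10 day swim, and a set named whatever its values. From these the text takes the genes it describes. Dnajc15, Rps15a, Dynlt1a, Dynlt1c, Taf10 and Ahnak, which the rule after trend removal names, were left out because their matched transcript lengths are doubtful. Of the genes named, Ccl6, Dbp, Fkbp10, Hba-a1, Hk1, Myh6, Ppib, Psmb5, Psmd1, Ptx3, Selp, Timp1, Tpi1, Txnrd1 and G530011O06Rik are listed at one locus with other genes. Predicted genes and small RNAs were left out unless a small count was spelled out. Libraries are numbered swim 1 to 3 and sedentary 1 to 3 in accession order. Only sedentary library 2 has a date in its label, so no value within a batch could be computed. Alternatives were other pseudocounts, filters, scalings, controls and variance models, the authors' calls, and each library left out. Leaving out libraries with the trend removed or for the slopes, sham as the control with the trend removed, and the authors' pooled controls were added after seeing the data.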

Additional observations from a re-analysis of the deposited data

Results flagged for a closer look

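The direct limma contrast of the 2 swim groups called 30 genes, and 6 of them are given here. They were also called the same way against sedentary, at a mean FPKM of at least 5. Among such genes they ranked highest by the smaller of the 2 changes, so they were chosen by these same values. The log2 difference, 4 day swim minus 10 day swim, was 2.51 for Hist1h1c (adjusted p = 0.00375), 2.02 for Hist1h1b (adjusted p = 0.00375), 1.72 for Ifi27l2a (adjusted p = 0.0118), 1.67 for Hist1h4d (adjusted p = 0.0142), 1.66 for Ifi27l2b (adjusted p = 0.011) and 1.63 for Hist1h4k (adjusted p = 0.017). The 4 day libraries were higher than the sedentary ones for each of the 6. With only the 2 swim groups in the fit 1 gene was called, which was lower, so none of the 6 was called there. Hist1h1c and Hist1h1b were called in each of 6 fits that left out 1 library. Ifi27l2a, Hist1h4d, Ifi27l2b and Hist1h4k were called in 2 of 6, with adjusted p of 0.118, 0.138, 0.107 and 0.162 without 10 day swim library 1. Hist1h4d and Hist1h4k have near-identical copies, so their values may share reads.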

How the results depend on the processing

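Against sedentary, 5282 to 5986 genes were called when each library was left out in turn, and 2907 of 4191 tested when FPKM of at least 5 was asked. With only the swim and sedentary libraries in the fit, 5193 were called. In that fit 7 of the named genes lost their call. They were Rsad2 (adjusted p = 0.0545), Fos (0.057), Hmox1 (0.0719), Ifit3 (0.0735), Il6 (0.075), Pdgfra (0.0776) and Hba-a1 (0.125). Against sham the stricter filter gave 2767. Against 3 day TAC it gave 472, a fit to these 2 groups alone gave 439, and leaving out each library gave 374 to 728. The 30 calls against 10 day swim became 8 with a pseudocount of 0.1, 55 with a pseudocount of 5, 18 with no filter on low values, 18 under quantile normalization, 1 with only the libraries of these 2 groups, 5 with the length and GC trend removed and 6 with the length trend removed, and were 5 to 121 when each library was left out. The stricter filter tests fewer genes and the fit to 2 groups has fewer samples. For the rest the cause was not tested. The count against sedentary after trend removal was 4062 to 4940 when each library was left out. Of the 120 genes named, 99 were called against sedentary, and 80 of these kept direction and call under every alternative tallied in which they were tested. Fits with the trend removed that left out a library or took sham as the control were not part of this tally. Sign changes were listed only where the gene was called in the main fit or in the alternative, so those of uncalled genes are left out. Within that limit the sign changed for Dcn (-1.04), Mt1 (-0.83) and Ifitm3 (-0.78) under quantile normalization, for Ifitm3 (-0.28), Pdgfra (0.20), Hgf (0.35) and Flywch2 (-0.03) with the length and GC trend removed, for Ifitm3 (-0.28) and Pdgfra (0.14) with the length trend removed, and for Nqo1, which ran from -0.31 without sedentary library 3 to 0.35 without sedentary library 2. The cause was not tested. No paired analysis was possible because the swim and sedentary libraries share no replicate numbers in the labels. Depth is unknown, so the counting error of low FPKM values could not be given.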
